A study of Mus musculus with 21 samples.

Results

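The SI crypt-only open sites without VDR were 5691 of the 74734 peaks of the pooled SI crypt ATAC-seq list, or 7.62% of them. They were selected on measured values. A peak of the pooled list was kept when it overlapped, by 1 bp, no pooled SI villus or colon ATAC-seq peak and no pooled VDR-binding peak of any compartment, and when peaks of at least 2 of the 3 SI crypt ATAC-seq samples overlapped it. The same rule applied to the other compartments gave 4727 SI villus-only sites and 1835 colon-only sites, out of 178944 pooled ATAC-seq peaks in all.

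The series examined where the vitamin D receptor (VDR) binds and where chromatin is open in 3 epithelial compartments of the C57BL/6J mouse intestine. SI crypts and SI villi came from the proximal small intestine and were separated from each other on a strainer, and the colon samples were mucosa from the whole colon. ATAC-seq was made from 3 samples of each compartment, from mice aged 90 days. VDR ChIP-seq was made from 4 samples of each compartment, from mice that had received 10 ng/g 1,25(OH)2D3 for 1 h, aged 4 to 6 weeks by the labels and older by the study's methods. The study's methods describe the ATAC-seq mice as untreated, while a protocol text shared by all samples in the labels describes the hormone injection. No VDR ChIP-seq of untreated mice was used here, so a site without VDR is a site at which the treated samples gave no pooled peak. The labels do not tie a sample to a mouse, and samples of different compartments can come from the same animals, so a p-value measures the spread between these samples.

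The crypts of the small intestine are pockets in which stem cells divide at the base, fed by WNT signals and flanked by Paneth cells, and in which their daughters divide a few more times before they move onto the villus as absorptive enterocytes or secretory cells. ATAC-seq marks DNA that a transposase can enter, which in most cells means promoters, enhancers and boundary sites bound by CTCF. Distal open sites tend to differ between cell types, and the short DNA motifs in them are those of the transcription factors that hold them open, such as GATA4, HNF4A, HNF1, CDX2 and KLF factors in gut epithelium. AP-1 is the dimer of FOS and JUN proteins, a factor known for opening enhancers in differentiated and stimulated cells.

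Of the SI crypt-only sites, 771 (13.5%) had another within 10 kb. The 3 strongest that are shown here, by the pooled -log10 q that MACS2 assigns to a peak, are printed as the 151 bp around the summit on the plus strand of mm9. The fourth sequence is the strongest of the sites that could be shown within 50 kb of the start of a stem cell or WNT gene (2 sites at Aqp4 were stronger and are not printed), and it lay in an intron of Ephb2, the ephrin receptor that keeps crypt cells in place. They lay at chr1:177442426-177442576, chr13:115470686-115470836, chr5:81856568-81856718 and chr4:136385873-136386023. The site at Cbln2, which ranked among them, is not printed. Capitals mark each match to a searched motif on either strand.
Site upstream of Rgs7: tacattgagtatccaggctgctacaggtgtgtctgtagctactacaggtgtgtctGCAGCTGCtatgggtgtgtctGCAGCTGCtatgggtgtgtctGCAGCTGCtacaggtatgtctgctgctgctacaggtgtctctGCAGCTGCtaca
Site downstream of the start of 4930544M13Rik: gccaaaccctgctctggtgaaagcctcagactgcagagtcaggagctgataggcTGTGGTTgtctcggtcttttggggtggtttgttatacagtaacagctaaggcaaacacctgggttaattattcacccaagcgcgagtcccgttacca
Intron of Lphn3: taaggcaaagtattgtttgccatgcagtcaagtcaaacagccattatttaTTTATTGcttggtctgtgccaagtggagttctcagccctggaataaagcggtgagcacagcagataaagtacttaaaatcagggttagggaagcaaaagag
Intron of Ephb2: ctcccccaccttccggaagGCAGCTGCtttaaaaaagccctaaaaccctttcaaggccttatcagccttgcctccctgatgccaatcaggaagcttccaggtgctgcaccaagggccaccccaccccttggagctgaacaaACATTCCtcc
The Rgs7 site is a tandem repeat that carries the E-box of the stem cell factor ASCL2 several times, and the Ephb2 site carries the same E-box near its left end. The 4930544M13Rik site held a RUNX match, the Lphn3 site a CDX2 match and the Ephb2 site also a TEAD match.

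Short stretches around the motifs that the comparisons turn on are given from the strongest SI crypt-only site that holds each, with the motif in capitals. These were chosen after the values had been seen. The ETS example lay upstream of Speer4c at chr5:15240066-15240106, the KLF example in an intron at Chodl at chr16:78974340-78974381, and the GATA example in an intron of Lphn3 at chr5:81905176-81905216. The CTCF example lay in an intron, with Ltn1 the nearest gene, at chr16:87405450-87405495, the HNF1 example upstream of Dhrs7b at chr11:60638813-60638858, and the FOXA example far upstream of Gm16140 at chr11:18730289-18730329.
ETS: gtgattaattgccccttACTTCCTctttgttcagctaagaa
KLF: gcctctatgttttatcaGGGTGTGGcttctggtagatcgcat
GATA: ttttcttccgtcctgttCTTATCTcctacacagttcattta
CTCF: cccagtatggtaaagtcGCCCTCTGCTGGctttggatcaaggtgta
HNF1: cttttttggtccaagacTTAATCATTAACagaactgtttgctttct
FOXA: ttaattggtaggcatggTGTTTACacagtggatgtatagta

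Among the values that chose the sites, the pooled -log10 q had a median of 10.8 and an interquartile range of 8.11 to 14.5, against a median of 8.31 over all pooled SI crypt peaks. The fold enrichment, the ratio of the summit pileup to the local background, had a median of 5.77, and the peaks were 217 bp wide at the median. The strongest SI crypt-only site reached a -log10 q of 54.3, a value that 1236 other pooled SI crypt peaks exceeded. Just inside the rule, 3647 sites called in 2 crypt samples had a median -log10 q of 9.14. Just outside it, 9462 peaks called in a single crypt sample had a median of 5.21. The 2044 sites called in all 3 crypt samples had a median of 15.4.

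The crypt samples contributed unequally to the sites. Crypt sample 1 called 4795 of them (84.3%), sample 2 called 3405 (59.8%) and sample 3 called 5226 (91.8%), with median -log10 q values of 5.13, 6.15 and 5.53. Sample 2 held the fewest peaks in all, 35222 against 51732 in sample 1 and 57827 in sample 3. The tags kept by MACS2 were 14376006 in sample 1, 18354820 in sample 2 and 23893138 in sample 3, so the number of sites did not follow the depth. The pairing of samples 1 and 3 accounted for 2286 sites (40.2%), that of samples 2 and 3 for 896 (15.7%) and that of samples 1 and 2 for 465 (8.17%). Across the 2044 sites called in all 3 samples, the rank correlation of -log10 q between 2 samples lay between 0.341 and 0.4. Those points share each sample's depth and its tag extension.

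The rule barred any overlap with a pooled SI villus or colon peak, so only the distance to such peaks could vary. The distances of other sets were not taken for comparison. Of the 5691 sites, 540 (9.49%) had a pooled SI villus or colon peak within 500 bp and 2159 (37.9%) had one within 5 kb. Neighbours from the SI villus, at 472 sites within 500 bp, were more numerous than those from the colon, at 243. The pooled SI villus list was also longer, at 64782 peaks against 39428 in the colon. Peaks of a single SI villus sample overlapped between 102 and 226 of the sites (1.79% to 3.97%), and peaks of a single colon sample between 21 and 72 (0.369% to 1.27%). Without the 491 sites that any single SI villus or colon sample touched, 5200 remained.

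Single-sample VDR-binding peaks overlapped few of the sites. A pooled VDR-binding peak was barred by the rule, so only single-sample peaks could appear. The 12 VDR ChIP-seq samples together touched 44 sites (0.773%). In the SI crypt, VDR sample 1 touched 16 sites (0.281%, Wilson 95% interval 0.173 to 0.456), sample 2 touched 2, and samples 3 and 4 touched 1 each. The 4 crypt samples together touched 19 sites, and without sample 1 they touched 3. Of the 58059 pooled SI crypt peaks that have no pooled VDR-binding peak, sample 1 touched 1.36% and samples 2 to 4 touched 0.0224% to 0.0362%, so the low shares of samples 2 to 4 were not particular to the sites. Sample 1 held 13382 peaks from 3100376 kept fragments, the most peaks and the fewest fragments of the crypt VDR samples. The DR3 element, the repeat to which VDR binds with RXR, was found at 0 of the 5691 summits, which allows a share of up to 0.0527%. It was found at 0.0843% of all pooled SI crypt summits and at 0.773% of those of the 1811 crypt-only peaks that overlapped a pooled VDR-binding peak. Both of these sets hold peaks that the rule removed. Without a pooled VDR-binding peak, it was at 0% of 15953 crypt peaks shared with both other compartments and at 0.0132% of 22676 crypt-only peaks. Colon-only summits held it at 0 of 1835, so its absence was not particular to the SI crypt-only sites. Intervals and limits here cover counting error only.

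SI crypt-only sites were distal, and more of them lay at promoters than did the sites restricted to the other compartments. The median distance to the nearest protein-coding TSS was 37.6 kb, against 26 kb for SI villus-only sites, 35 kb for colon-only sites and 16.8 kb for all pooled SI crypt peaks. By summit, 2913 sites (51.2%) were intergenic, 2229 (39.2%) intronic, 126 (2.21%) exonic and 423 (7.43%) within 1 kb of a TSS. Over 100 kb from any TSS lay 25.8% of SI crypt-only sites, 24.8% of colon-only sites and 15.3% of SI villus-only sites.

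**Figure D1:**
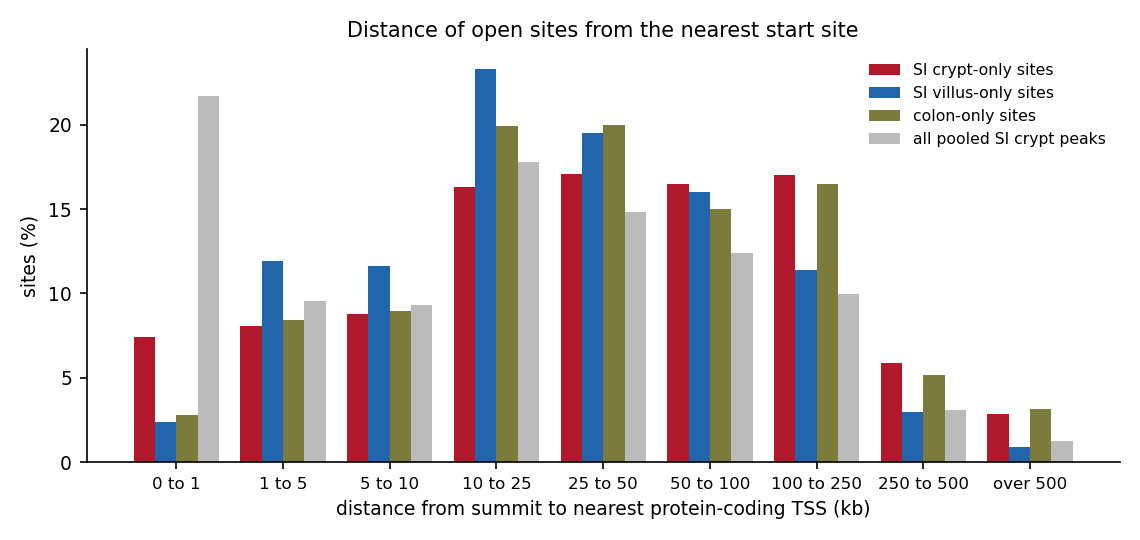
Percent of sites (vertical axis) by distance from the summit to the nearest protein-coding TSS in kb (horizontal axis), for the 5691 SI crypt-only, 4727 SI villus-only and 1835 colon-only sites and all 74734 pooled SI crypt peaks. The SI crypt-only bars exceed those of both other restricted sets within 1 kb, at 7.43% against 2.41% and 2.78%, and stay far under the 21.7% of all crypt peaks.

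The promoter share was compared over samples, each ATAC-seq sample giving a value over the sites of its own compartment that it had called. It was 6.82%, 7.84% and 7.31% in the crypt samples, 2.37%, 2.4% and 2.26% in the villus samples, and 3.12%, 2.81% and 2.92% in the colon samples. The crypt values lay above all 6 others. The means were 7.32% ± 0.511 in crypt, 2.34% ± 0.0724 in villus and 2.95% ± 0.158 in colon (SD, n = 3 each), a difference of 4.68 percentage points between crypt and the other samples (exact permutation, two-sided, p = 0.0238 and 0.0476 after adjustment). This p was the smallest that 84 splits of 3 against 6 samples allow, the adjustment was made by the Benjamini-Hochberg method over 10 measures, and the samples of a compartment share sites. The SD is therefore not a spread between independently chosen sites. The same limits hold for the motif and GC measures below. When each sample's own compartment-restricted peaks were used in place of the shared sites, the difference was 2.04 points and no longer passed (adjusted p = 0.408, exact permutation test).

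The promoter sites were richer in GC and CpG than the distal sites. The 423 promoter sites averaged 59.9% GC and 11.3 CpG per 200 bp, and the 5268 distal sites 48% GC and 2.93 CpG. All pooled SI crypt summits averaged 52.9% GC and 6.49 CpG, and the distal ones among them 49.8% and 3.82. The promoter summits of that list were not measured apart, so these values are not shown to be particular to the sites. A pooled SI villus or colon peak lay within 500 bp of 131 promoter sites (31%) and of 409 distal sites (7.76%). Without the sites that had such a neighbour in any compartment, the promoter share still differed, by 3.76 percentage points (adjusted p = 0.0476, exact permutation test). The 3 strongest promoter sites, named after their values had been seen, were those of Cntnap5c, a neuronal cell adhesion gene, Glb1l2, a galactosidase-like gene, and Klk1, tissue kallikrein. At Klk1 the -log10 q was 12.3, 11.9 and 21.2 in crypt samples 1 to 3, with the summit 127 bp upstream of the start.

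Of the 10 measures tested, the largest difference was at the AP-1 motif, TGANTCA. It was rare in the 200 bp at SI crypt-only summits and common at the summits of the sites restricted to either other compartment. The crypt samples gave 6.42%, 6.67% and 6.35%, the villus samples 34.7%, 34.5% and 36.6%, and the colon samples 24.7%, 27.3% and 27.3%. No crypt value came near the others. The samples of a compartment share sites, so the 3 values of each and their SD are not independent measurements. The means were 6.48% ± 0.165 in crypt, 35.3% ± 1.12 in villus and 26.4% ± 1.51 in colon (SD, n = 3 each), and crypt fell by 24.4 percentage points below the mean of the other samples (exact permutation, two-sided, p = 0.0238 and 0.0476 after adjustment). In the pooled lists the motif was at 6.52% of SI crypt-only summits and at 5.92% of windows 1 kb to either side of them. The same ratio of summit to flank was 1.1 for SI crypt-only, 5.45 for SI villus-only and 4.34 for colon-only sites. All pooled SI crypt summits held it at 12%.

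**Figure D2:**
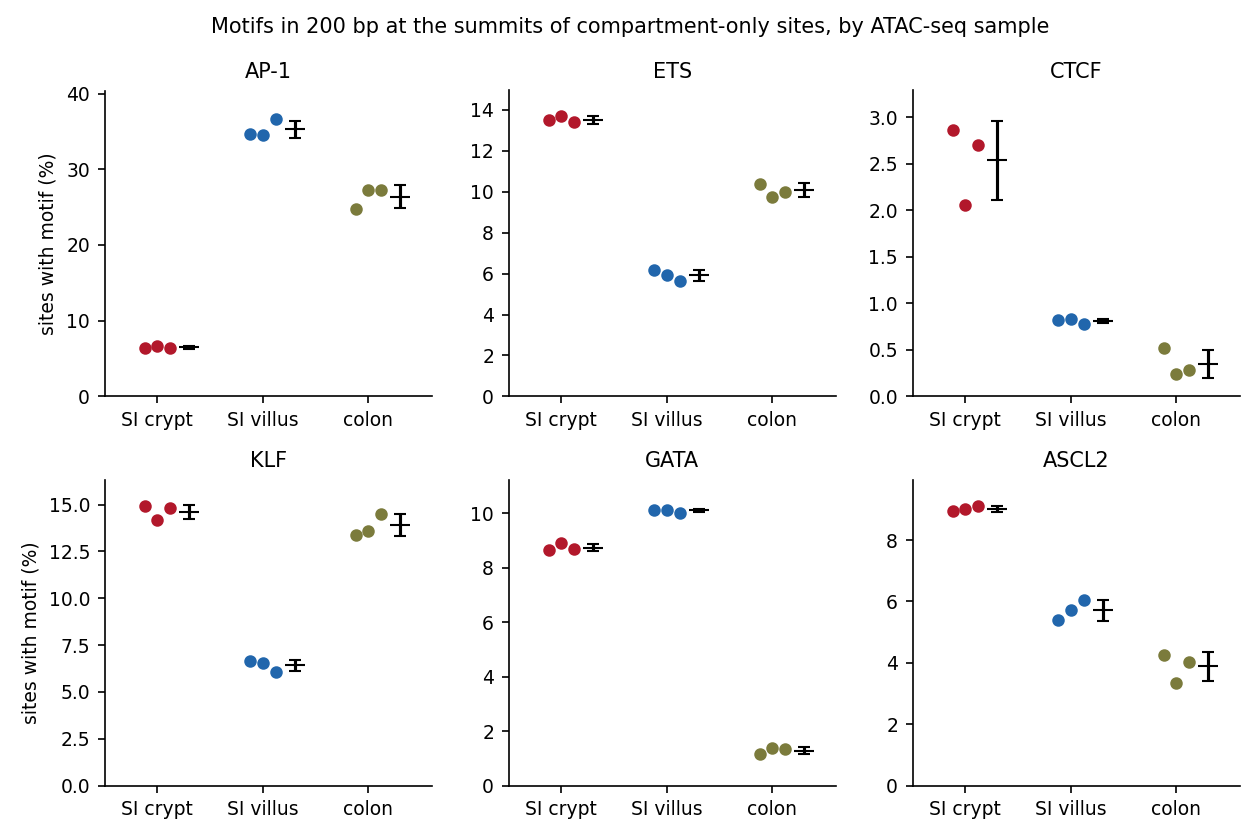
Percent of compartment-only sites with each motif in 200 bp at the summit (vertical axis, from 0) for the 3 ATAC-seq samples of each compartment (points), with mean and SD (n = 3) beside them. AP-1 is at 6.35% to 6.67% in crypt and at 24.7% or more elsewhere, while ETS, CTCF and ASCL2 are highest in the 3 crypt samples.

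Within the pooled SI crypt list, the AP-1 share was low at crypt-only peaks and at peaks shared with the colon, and higher at peaks shared with the SI villus. Among distal crypt peaks without VDR, it stood at 6.86% of the 20709 crypt-only summits (called in any number of crypt samples), 10.2% of those shared with the colon, 17.7% of those shared with the SI villus and 23.3% of those shared with both. The distal crypt-only peaks with a pooled VDR-binding peak held it at 6.32%, those shared with the colon and with VDR at 7.02%, those shared with the SI villus and with VDR at 14.3%, and those shared with both and with VDR at 19.7%. Among the strongest 10% of the SI crypt-only sites 32 of 569 held the motif (5.62%), and among the weakest 10% 42 of 569 (7.38%). The direction of the difference was the same for distal sites alone (-24.5 points), for sites called in all 3 samples (-27.8) and in windows of 400 bp (-26.8). From each sample's own restricted peaks it was -11.7 points and no longer passed (adjusted p = 0.0595, exact permutation test).

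ETS factors, a large family that includes the epithelial ELF and EHF proteins, bind AGGAAGT. This motif was found at 13.5%, 13.7% and 13.4% of SI crypt-only sites in the crypt samples. It was at 6.17%, 5.94% and 5.65% of SI villus-only sites in the villus samples. At colon-only sites the colon samples gave 10.4%, 9.76% and 9.98%. The crypt values were above the other 6. The difference was 5.54 percentage points (exact permutation, two-sided, p = 0.0238 and 0.0476 after adjustment). It depended on the window. In the 400 bp at the summit the colon samples gave 19.9% to 20.4% and the crypt samples 18.9% to 19.2%, and the exact permutation test no longer passed (adjusted p = 0.5). In bins of 50 bp, the motif was at 4.52% and 4.48% of SI crypt-only sites in the bins that flank the summit and at 1.32% in the outermost downstream bin. At colon-only sites the bins that flank the summit held 2.51% each, and the bins centred 175 bp upstream and 125 bp downstream held 3.27% and 3.54%. The motif was thus highest beside the summit at SI crypt-only sites. At colon-only sites the highest bins held 60 and 65 of 1835 sites and each summit bin 46, small counts whose difference was not tested. Within the pooled SI crypt list, a high ETS share was not particular to crypt-only peaks. Distal SI crypt-only sites held the motif at 14%. Among distal crypt peaks without VDR it was at 11.8% of crypt-only summits (called in any number of crypt samples). It was at 14.5% of those shared with the colon, 9.01% of those shared with the SI villus and 10% of those shared with both. From each sample's own restricted peaks, neither ETS (3.78 points) nor CTCF (1.75 points) passed (adjusted p = 0.0595 for both, exact permutation test).

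**Figure D3:**
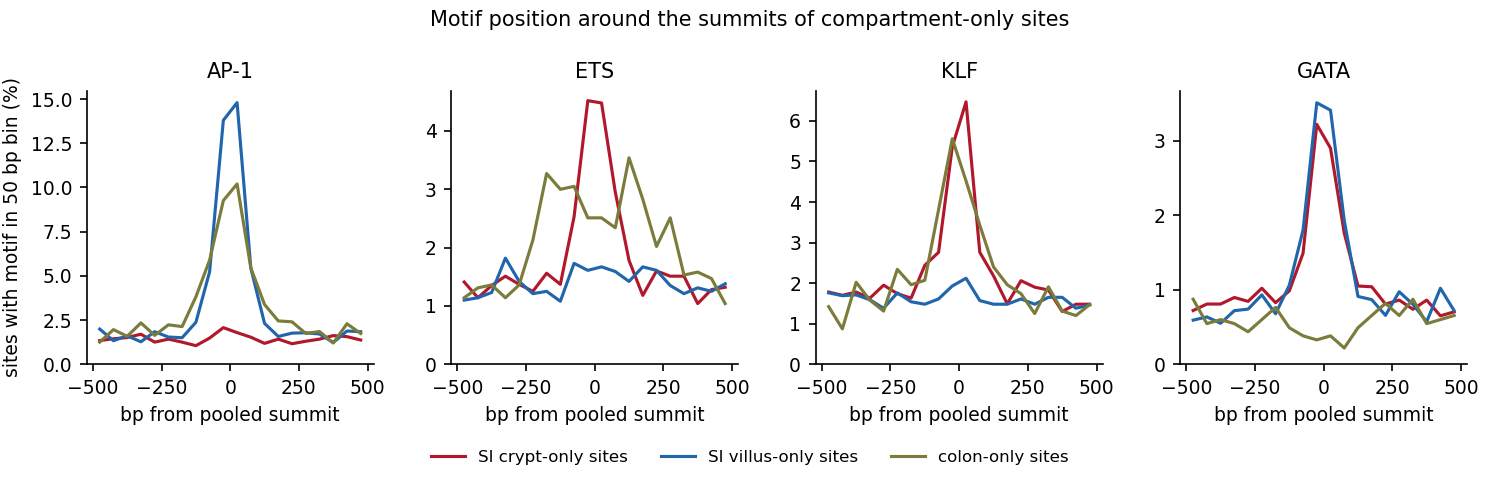
Percent of sites with a motif in each 50 bp bin (vertical axis, each panel from 0) by distance of the bin from the pooled summit in bp (horizontal axis) for AP-1, ETS, KLF and GATA at the 3 compartment-only sets (lines). The AP-1 line of SI crypt-only sites is close to flat at 1.79% to 2.07% beside the summit, where SI villus-only sites reach 14.8%, and the ETS line of SI crypt-only sites is centred on the summit at 4.52%.

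CTCF, the factor that anchors chromatin loops, was searched by its core motif. It was at 2.86%, 2.06% and 2.7% of SI crypt-only sites in the crypt samples. The villus samples gave 0.782% to 0.83% of SI villus-only sites, and the colon samples 0.24% to 0.521% of colon-only sites. The crypt values did not overlap the others, and the difference was 1.96 percentage points (exact permutation, two-sided, p = 0.0238 and 0.0476 after adjustment). In the pooled list 161 of the 5691 sites held it, against 8 of 11378 flanking windows. All pooled SI crypt summits held it at 3.11%, so SI crypt-only sites were not above crypt peaks in general. The CTCF sites were among the weaker ones, with a median -log10 q of 9.14, against 10.9 for the sites without the motif. Of them 18% were called in all 3 crypt samples, against 35.9% of all SI crypt-only sites.

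GC content at the summit was 48.7% in each of the 3 crypt samples, 46.5% to 47% in the villus samples and 45.4% to 45.9% in the colon samples. The difference was 2.52 percentage points (exact permutation, two-sided, p = 0.0238 and 0.0476 after adjustment). All pooled SI crypt summits averaged 52.9%. From each sample's own restricted peaks the difference was 0.775 points and did not pass (adjusted p = 0.408, exact permutation test).

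For KLF, GATA and TCF7L2 motifs, the contrast of crypt with the mean of the other samples did not pass. The KLF motif, GGGNGTGG, was at 14.6% ± 0.358 of sites in crypt, 13.9% ± 0.589 in colon and 6.42% ± 0.294 in villus (SD, n = 3 each). Crypt and colon overlapped, and the test over the 10 measures did not pass (difference 4.49 points, exact permutation p = 0.0476, adjusted p = 0.0794). The GATA motif, AGATAAG, was at 8.74% ± 0.137 in crypt, 10.1% ± 0.0413 in villus and 1.29% ± 0.126 in colon (SD, n = 3 each). Crypt lay below villus and above colon, so the comparison with the mean of the others did not pass (adjusted p = 0.556, exact permutation test). At colon-only sites the 2 bins beside the summit held GATA at 0.327% and 0.381%, lower than the outer bins of the plot of motif position.

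The HNF4A and SOX motifs did not pass the test either. The HNF4A motif, CAAAGTCCA, which belongs to the nuclear receptor that drives enterocyte genes, was at 1.72% ± 0.136 in crypt, 2.3% ± 0.147 in villus and 1.54% ± 0.147 in colon (SD, n = 3 each). In the pooled list it was at 1.65% of SI crypt-only summits and 0.299% of their flanks. The TCF7L2 motif, CTTTGAT, through which WNT signals act, was at 4.61% ± 0.408 in crypt, 5.81% ± 0.335 in villus and 3.18% ± 0.446 in colon (SD, n = 3 each). As for GATA, the crypt values lay below all villus and above all colon values, which the contrast with their mean cannot show. The SOX motif, CATTGTT, was at 3.48% of SI crypt-only summits and 3.63% of their flanks. The adjusted p-values were 0.556 for HNF4A, 0.905 for TCF7L2 and 0.34 for SOX (exact permutation test).

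Other motifs were described without a test and were outside the 10 measures of the adjustment. The ASCL2 E-box, CAGCTGC, was at 8.93% to 9.11% of sites in the crypt samples, 5.38% to 6.04% in the villus samples and 3.35% to 4.27% in the colon samples. HNF1, the homeodomain factor of liver and gut, had few matches. Its motif was at 30 of 5691 SI crypt-only summits (0.527%) and 1 of 11378 flanking windows, at 5 of 4727 SI villus-only summits, and at 0 of 1835 colon-only summits, which allows up to 0.163%. Of the 30 sites 53.3% were called in all 3 crypt samples, at a median distance of 92.7 kb from a TSS. All pooled SI crypt summits held the motif at 0.265%. The CDX2 motif, CNATAAA, was at 18.6% ± 0.707 in crypt, between villus (11.3% ± 0.921) and colon (35% ± 0.795), and the FOXA motif, TGTTTAC, at 5.7% ± 0.203, between villus (3.16% ± 0.125) and colon (7.32% ± 0.455), all as SD with n = 3. CDX2 was at 23.2% of the strongest 10% of SI crypt-only sites and 15.8% of the weakest 10%, and FOXA at 8.44% and 5.98%.

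The RUNX motif, TGTGGTT, was at 4.64% of SI crypt-only summits and 4.87% of their flanks, and the ATOH1 E-box, CAGATGG, at 4.87% and 4.74%. TEAD (ACATTCC) was at 4.01% and 2.96%, STAT (TTCCNGGAA) at 1.05% and 0.501%, the MYC E-box (CACGTG) at 4.09% and 2.65%, and LRH-1 (TCAAGGTCA) at 0.351% and 0.527%. At all pooled SI crypt summits of the same length, the shares were 14.6% for KLF, 9.54% for ETS, 6.13% for GATA, 7.57% for ASCL2, 12.4% for CDX2, 3.77% for FOXA, 1.98% for HNF4A, 3.73% for TCF7L2 and 2.47% for SOX. Of the 5691 sites, 3444 (60.5%) held at least 1 of the ETS, KLF, GATA, CTCF, ASCL2, HNF1, FOXA, CDX2, AP-1 and HNF4A motifs and 2247 (39.5%) held none. ETS and KLF stood together at 131 sites and CDX2 and GATA at 116. A match gives the letters only and is not evidence of binding.

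The 10 strongest sites were all called in the 3 crypt samples, and 9 of them lay over 10 kb from the TSS of the nearest gene. Their pooled -log10 q ran from 43.7 to 54.3. By nearest gene they were those of Rgs7, Cbln2, 4930544M13Rik, Lphn3, 5730522E02Rik, Mms22l, Speer4c, 4930548G14Rik, Gm16140 and Slitrk6. Several of these genes are known from neurons, among them Rgs7, a regulator of G protein signals, Cbln2, a synapse organizer, Lphn3, an adhesion receptor, and Slitrk6, a membrane protein of growing neurites. At the Rgs7 site, 21.2 kb upstream of the start, the -log10 q was 23.7, 27.4 and 26.7 in crypt samples 1 to 3 and the fold enrichment 13, 12.3 and 13. At the Lphn3 site, 407 kb into the gene, it was 25.5, 8.14 and 34.5, with crypt sample 2 far below the others. The Mms22l site, 860 kb from the start of that DNA repair gene, gave 20, 36.4 and 18.9, here with sample 2 the highest. AP-1 was at 0 of the 10 sites and ETS at 1, and a peak of a single villus or colon sample touched 3.

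By nearest TSS, 3869 genes had at least 1 SI crypt-only site and 2802 of them had exactly 1. The genes with the most sites were Auts2 with 12, Zfhx3 with 10, Lphn2 and Mat2b with 9 each, and, tied at 8, Cdh20, Dach1, Myc, Plxna2, Rag2, Sox9 and Tgfbr2. All of those tied for the fifth place are given. A gene far from its neighbours collects more sites by this rule, so the number was also set against the length of genome nearest to each start, with 2.14 sites per Mb over the genome. Sox9 had 13.5 sites per Mb, Zfhx3 12, Plxna2 10.2, Tgfbr2 9.3 and Auts2 8.6, while Myc had 5.54 and Cdh20 2.87. SI villus-only sites at the same genes numbered from 0 to 2. These genes were chosen for having many SI crypt-only sites, so both patterns follow in part from the choice. Density was not ranked over all genes.

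Sox9, the transcription factor of crypt base and Paneth cells, had 8 sites, all intergenic and all downstream of its start, at 6.36 to 356 kb. The strongest, 356 kb downstream at chr11:112999891-113000072, had a pooled -log10 q of 12.6 and was called in crypt samples 1 and 3 at 4.48 and 7.48. The site at 29.1 kb was called in all 3 samples, at 7.06, 6.51 and 3.94, and holds an ASCL2 E-box. Another lay 53.7 kb downstream with ASCL2, CDX2 and TCF7L2 motifs. The Sox9 sites were weak beside the median SI crypt-only site, with a median -log10 q of 8.03, and 2 of the 8 were called in all 3 samples.

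Myc, a transcription factor gene of growing cells and a WNT target, also had 8 sites, from 112 kb upstream to 661 kb downstream of its start. The strongest lay 1.94 kb upstream with a CTCF motif and a pooled -log10 q of 10.9, called in crypt samples 2 and 3 at 4.97 and 5.97. A second lay 0.893 kb upstream. Only 1 of the 8, at 227 kb with ASCL2 and TCF7L2 motifs, was called in all 3 samples, at 4.12, 2.61 and 2.84.

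**Figure D4:**
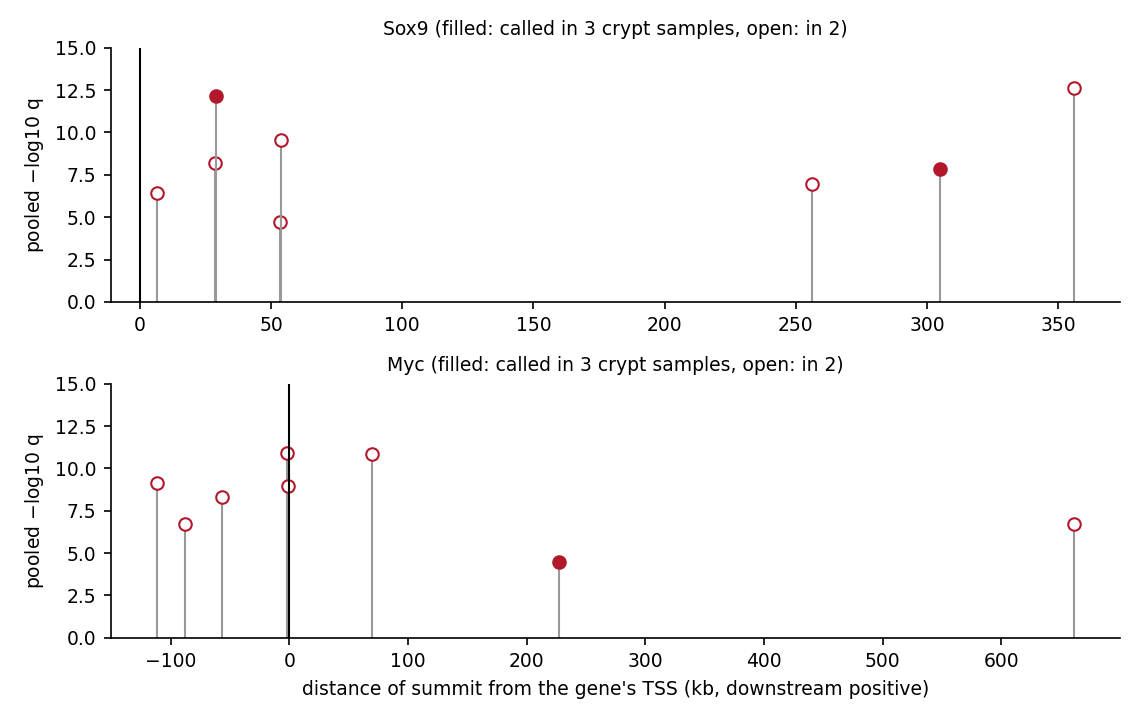
Pooled -log10 q (vertical axis) of the 8 SI crypt-only sites nearest to Sox9 and the 8 nearest to Myc by distance of the summit from the gene's TSS in kb (horizontal axis, downstream positive), filled where 3 crypt samples called the site and open where 2 did. The Sox9 sites all lie downstream, from 6.36 to 356 kb, and the Myc sites spread over both sides of the start.

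Of the other genes with many sites, Zfhx3, a homeobox transcription factor, had 10 sites within 201 kb of its start, 6 of them called in all 3 crypt samples, and the strongest, 18.4 kb upstream, gave 10.2, 8.14 and 9.59. Auts2, a developmental nuclear factor, had 12 sites between 148 and 655 kb from its start, of which the strongest, 655 kb upstream, reached a pooled -log10 q of 32.4. Plxna2, a semaphorin receptor, had its strongest site 425 kb upstream at 35, with 14.3, 19.2 and 20.2 in crypt samples 1 to 3. Of the 8 Rag2 sites 7 were called in all 3 samples, and 6 of the 8 lay 897 kb or more from the start of this recombinase gene. Tgfbr2, the receptor that takes TGF-β signals, had 8 sites between 18.5 and 705 kb, with a maximum of 12.4. Dach1, a transcriptional corepressor, had a site 2.42 kb into the gene and 5 sites in introns in all.

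The gene lists were read against all protein-coding genes, as a description without a test on short lists. Over all 22367 protein-coding genes, 5.79% were the nearest gene of a site within 10 kb of the TSS and 12.4% within 50 kb. Within 10 kb 9 of the 10 lists had a larger share, by little for the WNT pathway (2 of 28 genes) and immune (2 of 26) lists. Within 50 kb the enteroendocrine and tuft (8.7%), immune (11.5%), stromal, endothelial and glial (8.7%) and villus enterocyte (4%) lists lay under the 12.4%. For SI villus-only sites too, all lists but the stem cell (0%), immune (3.85%) and stromal, endothelial and glial (4.35%) lists exceeded the 5.03% of all genes within 10 kb. Of 25 stem cell genes, 5 (20%) had a site within 10 kb and 11 (44%) within 50 kb. None of these 25 genes was the nearest gene of an SI villus-only or colon-only site within 10 kb, where the background shares were 5.03% and 1.57%. Within 50 kb, 7 of them (28%) had an SI villus-only site and 1 (4%) a colon-only site. The 5 genes were Sox9, Slc12a2, Ephb2, Myc and Aqp4. The sites within 10 kb at Sox9 and Slc12a2 were weak, with a pooled -log10 q of 6.45 and 6.32, against a median of 10.8 over all SI crypt-only sites. The Ephb2 site whose sequence is given above, 5.96 kb into the gene, had a -log10 q of 11, 5.55 and 15.4 in crypt samples 1 to 3. Aqp4, a water channel of crypt base cells, had 3 sites within 50 kb, all called in the 3 samples, with pooled values of 21.4, 31.2 and 26.3. At 50 kb Axin2, Znrf3, Ephb3, Prom1, Lrig1 and Nr5a2 joined them, among which Ephb3 had sites at 10.3 and 30.6 kb. The rest of the list, Lgr5, Ascl2, Olfm4 and Smoc2 among them, was not nearest to any SI crypt-only site within 50 kb.

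Of 30 cell cycle genes, 4 (13.3%) had a site within 10 kb. Ccnd2, a cyclin of early cycle entry, had a site 8 bp from its start in this annotation, with 11.2, 6.21 and 10.7 in crypt samples 1 to 3, and a second 5.39 kb into the gene. Cdkn1b, the p27 inhibitor of cyclin-dependent kinases, had a site 5.65 kb upstream with ETS and KLF motifs, at 11.9, 10.8 and 7.58. Ccnb1 had a site 0.976 kb upstream called in samples 1 and 3, and E2f2 one 5.64 kb into the gene called in samples 1 and 2.

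Of 16 Paneth and antimicrobial genes, 4 (25%) had a site within 10 kb, as had 4 for SI villus-only sites. These were Mmp7, the protease that activates defensins, Reg3a, Reg3g and Itln1. The Mmp7 site, 2.43 kb upstream, was called in all 3 samples at 8.45, 7.13 and 3.69. Of 19 Notch and secretory lineage genes 3 (15.8%) had one, namely the Notch ligands Jag1 and Jag2 and the endocrine factor Insm1. The Jag2 site, 4.95 kb upstream, had a pooled -log10 q of 17.3. The strongest sample peaks that overlapped the Jag2 site gave 18.7, 12.9 and 25.2, and such peaks can have their summits outside the site. The Jag1 site, 1.66 kb into the gene, gave 13.2, 6.24 and 6.15. Of 28 WNT pathway genes 2 (7.14%) had a site within 10 kb, Lrp5, a WNT co-receptor, and Bcl9, a β-catenin partner, and 8 (28.6%) within 50 kb. The WNT list had SI villus-only sites at 5 genes (17.9%). Of 23 enteroendocrine and tuft genes 2 (8.7%) had a site, at the endocrine factors Pax6 and Isl1.

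Of 25 villus enterocyte genes 1 (4%) had an SI crypt-only site within 10 kb, while 6 (24%) had an SI villus-only site. The gene was S100g, which encodes the calcium-binding protein calbindin-D9k, a known target of 1,25(OH)2D3. Its SI crypt-only site lay 3 kb upstream at chrX:159405341-159405713, with a pooled -log10 q of 26.7 and 11.8, 8.51 and 11.5 in crypt samples 1 to 3, and it overlapped no pooled VDR-binding peak by the rule. Of 15 colon genes 2 (13.3%) had a site, Hoxb13 and Sycn.

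Cell types outside the epithelium were read from 2 lists. Of 26 immune genes 2 (7.69%) had an SI crypt-only site within 10 kb, Itgam and Ikzf1, and of 23 stromal, endothelial and glial genes 2 (8.7%), Vim and Lyve1. The shares for SI villus-only sites were 3.85% and 4.35%. An open site is not expression, and the part of such cells in the sites was not tested.

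**Figure D5:**
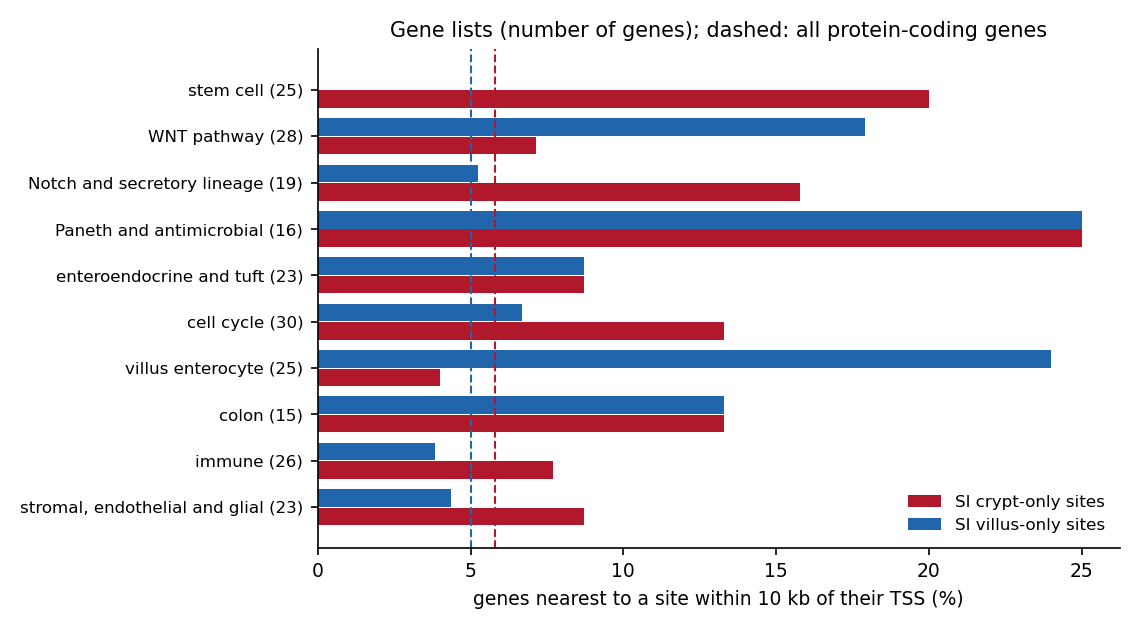
Percent of the genes of each list (number of genes in brackets) that are the nearest gene of a site within 10 kb of their TSS (horizontal axis, from 0), for SI crypt-only and SI villus-only sites, with dashed lines at 5.79% and 5.03% for all protein-coding genes. The stem cell list stands at 20% for SI crypt-only sites and 0 for SI villus-only sites, and the villus enterocyte list at 4% and 24%.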

How the data were processed

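The peak lists deposited for 9 ATAC-seq and 12 VDR ChIP-seq samples and for each compartment pooled were used. The submitters' processing notes name cutadapt 1.9.1, Bowtie2 2.2.6, SAMtools 0.1.19, Picard 2.18.27, bedtools 2.17.0, deepTools, DiffBind and MACS2 2.1.0.20150731, with mm9. Per the file headers the authors gave MACS2 no control, set q to 0.05 and kept 1 tag per position. Values used from the deposited lists were positions, fold enrichment (the ratio of summit pileup to local background) and -log10 q. The pooled intervals deposited by the authors are centred on the summit. Tags were extended by 91 to 126 bp in the crypt, 68 to 145 bp in the villus and 152 to 164 bp in the colon samples, which affects peak width and number. In the pooled villus list the shift was -53 bp for an extension of 157 bp. Pooled lists rested on 54803820 (crypt), 72892004 (villus) and 84065934 (colon) kept tags. DiffBind sets of the authors hold positions of differential VDR binding and were not used.

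Overlap meant 1 bp. Genes were the 22367 protein-coding genes of the mm9 annotation, distances ran from summit to nearest TSS, and motifs were matched as fixed letters on both strands, using Python 3.11.15, numpy 2.4.6 and scipy 1.17.1. CTCF, HNF1 and the DR3 element were also matched as fixed consensus sequences and overlaps between motifs were not removed. The members and the gene lists were chosen with earlier results of these data known. For 10 measures, each ATAC-seq sample's value over its own compartment's restricted sites, read at that sample's summits, entered a two-sided exact permutation test of 3 crypt against 6 other samples with Benjamini-Hochberg adjustment and a threshold of 0.05. The code was tested on simulated data. Named were the 10 strongest sites, the 5 genes with the most sites (with ties), and list genes with a site within 10 kb. Gfi1, Pla2g2a and Foxl1 had no entry under these symbols. No count test applies, since reads per site are not part of these lists. No 2 samples had identical lists.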

Additional observations from a re-analysis of the deposited data

Results flagged for a closer look

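SI crypt VDR ChIP-seq sample 1 stood apart from the other 3 crypt VDR samples at the SI crypt-only sites, touching 0.281% of them against 0.0351%, 0.0176% and 0.0176%. The gap to the nearest other sample was 0.934 of the group's range, past the limit of Dixon's test for 4 samples, which chance passes in about 1 group in 20. The same sample touched 1.36% of pooled SI crypt peaks without a pooled VDR-binding peak, against 0.0224% to 0.0362% in the other 3. It held the most peaks of the 4 from the fewest kept fragments, and the part of this in its overlap with the sites was not tested.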

How the results depend on the processing

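The 5 differences that passed depend on a p at the smallest value the design gives. The adjusted p passes only while at least 5 of the 10 measures reach it. It also depends on which of the 21 measures taken entered the family. The ASCL2, HNF1, TEAD and STAT motifs, which were outside it, also had all crypt values above the other 6. An adjustment over all 21 was not made. With 400 bp windows the differences between crypt and the other samples were 1.62 points for GC, 3.41 for ETS, -26.8 for AP-1 and 1.97 for CTCF, and for distal sites 1.86, 5.95, -24.5 and 2.07. The promoter share is not part of these families of 9 measures, of which 4 reached the smallest p in each setting, for an adjusted p of 0.0536 (GC, AP-1, CTCF and SOX at 400 bp, and GC, ETS, AP-1 and CTCF for distal sites). With each sample's own peaks the differences were 2.04 for the promoter share, 0.775 for GC, 3.78 for ETS, -11.7 for AP-1, 1.75 for CTCF and 0.0852 for SOX, which turned sign without passing in either setting (-0.325 in the main setting). The cause was not tested. Under the replicate block the differences were unchanged by construction (4.68 for the promoter share, 2.52 for GC, 5.54 for ETS, -24.4 for AP-1 and 1.96 for CTCF), with p = 0.0741, the smallest that the exact permutation of 27 paired arrangements gives. Of 9 same-numbered pairs of samples, 2 had a correlation over 0.1 (range -0.28 to 0.483 over 21 measures). Such correlations cannot tell whether samples of the same number came from the same mice. Leaving out each sample gave 4.42 to 4.93 for the promoter share, 2.38 to 2.69 for GC, 5.08 to 6.03 for ETS, -25.6 to -23.2 for AP-1, 1.8 to 2.2 for CTCF and -0.247 to 0.423 for TCF7L2, which changed sign without passing. No leave-out passed: 2 against 6 samples give no p under 0.0714 in an exact permutation test, and with a villus or colon sample left out the lowest adjusted p was 0.0595. All 5 passed with sites called in all 3 samples and with no other pooled peak within 500 bp.

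The number of SI crypt-only sites was 2044 with all 3 crypt samples required and 15153 with 1, and 2509 to 4330 with a crypt sample left out and both others required (2940 without sample 1, 4330 without sample 2, 2509 without sample 3). With the original MACS2 intervals it was 5634, and with equal numbers of the strongest peaks 6247, of which 4304 were among the 5691. Linked genes numbered 1296 within 10 kb and 2773 within 50 kb. Sites with a peak of a single crypt VDR sample numbered 3 to 19 with a VDR sample left out.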
